A study of Mus musculus with 4 samples.

Results

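NF-kB subunit and inhibitor transcripts were measured in mouse kidney ureteric buds exposed to angiotensin II (AngII) or to media alone. The 10 genes were 5 subunits (Rela, Relb, Rel, Nfkb1 and Nfkb2) and 5 inhibitors (Nfkbia, Nfkbib, Nfkbie, Nfkbiz and Tnfaip3). They were chosen by symbol, and array probes were taken whose accession maps to these symbols. Of the 10 genes, 9 had such a probe, and no accession mapped to Nfkb1, which was not analysed here. An array probe without a matched symbol may still measure Nfkb1. Rel lay below the background criterion, so 8 members were tested among 15003 features, 11452 of them named genes. The tested members were 3 subunits and all 5 inhibitors.

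The AngII group was RNA of intact ureteric buds kept for 6 h with AngII at 1e-05 M, and the media group was RNA of buds kept for 6 h in media alone. The ureteric bud is the epithelial outgrowth that branches to form the collecting ducts. Both groups were grown in matrix gel on culture inserts, in a medium that held 10% serum with GDNF and HGF at 100 ng/ml each. The labels number 2 AngII and 2 media RNAs, give no strain, age or pooling, and pair the RNAs of 1 number on 2 two-colour arrays with the dyes swapped, giving 4 arrays on 1 slide. The comparison asks which transcripts differ in buds exposed to AngII, the active peptide of the renin-angiotensin pathway.

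Of 41174 probes, 19715 to 21337 per array were well above background in AngII RNA and 19024 to 21919 in media RNA. Of 15 ureteric epithelium markers 14 were tested, among them Gata3, Krt8 and Wnt11, and Ret was not well above background. The summed intensity of the 14 ran from 245562 to 273182 in AngII RNA and from 269467 to 341670 in media RNA, which overlap. The brightest, Krt18 and Krt8 (mean log2 intensity 17.02 and 16.63), weigh most in this sum. The single markers moved both ways, with log2 ratios from 1.53 for Wnt9b to -0.59 for Krt8. Limma called 7 of the 14 higher under AngII and 5 lower, where 39% and 38.1% of all features were. The ratios of the 2 numbered pairs differed by no more than array noise: the half-difference of their log2 ratios had an SD of 0.04 over the features, and so had the contrast that holds array noise alone. Between pairs, limma called 0 of 15003 features at an adjusted p under 0.05. Unadjusted, 767 features had a p under 0.05, and 750 would by chance. The pairs were therefore counted as 1 independent pair of RNA samples, so every p-value here reflects spread of labelling and hybridisation alone, not spread between separate cultures. The dyes contributed more, with an SD of 0.16 for the half-difference between dye orientations, against 0.38 for AngII over media. In the main fit the dye-swapped arrays of a pair were averaged first, so its SEs and p-values leave out this dye spread. The number of arrays limits the precision. Of 9 tested erythroid markers limma called 7 higher under AngII and 1 lower, where 39% and 38.1% of all features were. Their summed intensity ran from 33041 to 40659 in AngII RNA and from 6787 to 8332 in media RNA. For 10 tested leukocyte markers the sums were 2017 to 2309 in AngII RNA and 1859 to 2029 in media RNA, with Cd68, Itgam, Lyz2 and Laptm5 untested. Of the 10 tested, limma called 4 higher and 5 lower, where 39% and 38.1% of all features were. Stromal marker sums did not overlap between the RNAs, at 49703 to 57677 in AngII RNA and 41134 to 48881 in media RNA. Of 12 tested stromal markers limma called 5 higher and 2 lower, where 39% and 38.1% of all features were. Their median log2 ratio was 0.06. Acta2 (log2 ratio 1.69, 3.24-fold) and Cspg4 (1.07, 2.10-fold) led the rise at their brightest probes. Other probes gave log2 ratios of 1.03 and 0.65 for Acta2 and 0.66 for Cspg4. The part of these cell types in the results was not tested. In RNA of whole buds, fewer cells of a type and less RNA per cell cannot be told apart.

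NF-kB is a family of dimeric transcription factors. In resting cells the dimers are held in the cytoplasm by inhibitors of the IkB family, and stimuli such as TNF lead to phosphorylation and breakdown of the inhibitor, so that the dimer enters the nucleus and binds kappa-B sites in DNA. Several genes of the family are themselves known targets of NF-kB, among them Nfkbia, Nfkb2, Relb and Tnfaip3, so that activation renews its own inhibitors and part of its own subunits. AngII is known to activate NF-kB in renal and vascular cells through its type 1 receptor.

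Promoter windows of the members are shown because several of these genes are known targets of the factor they encode or restrain. RefSeq promoter windows (build GRCm38.p6) were matched by symbol for 7 of the 10 genes, and Relb, Nfkb1 and Nfkbiz had no entry. In each, the 250 bases before the annotated start were searched on both strands for the kappa-B consensus. Capitals mark matches, and overlapping matches run together. The consensus was found in 7 of 10 windows of these genes, covering 5 of 7 genes, against 3.90% of 32851 windows of the same length in all. A match describes the letters and does not show binding.
Nfkbia, chr12:55492648-55492897 on the minus strand: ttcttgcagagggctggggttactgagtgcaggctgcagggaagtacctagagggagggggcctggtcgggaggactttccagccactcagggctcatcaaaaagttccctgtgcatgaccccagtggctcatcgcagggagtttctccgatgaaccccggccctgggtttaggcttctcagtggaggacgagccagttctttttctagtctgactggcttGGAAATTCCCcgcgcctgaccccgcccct
Nfkb2, first of 3 windows, chr19:46304487-46304736 on the plus strand: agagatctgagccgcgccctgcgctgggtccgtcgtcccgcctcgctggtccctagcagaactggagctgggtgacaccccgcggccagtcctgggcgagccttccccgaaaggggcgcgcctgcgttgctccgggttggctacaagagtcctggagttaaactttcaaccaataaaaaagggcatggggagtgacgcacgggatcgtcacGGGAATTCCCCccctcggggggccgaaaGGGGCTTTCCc
Tnfaip3, first of 2 windows, chr10:19015411-19015660 on the minus strand: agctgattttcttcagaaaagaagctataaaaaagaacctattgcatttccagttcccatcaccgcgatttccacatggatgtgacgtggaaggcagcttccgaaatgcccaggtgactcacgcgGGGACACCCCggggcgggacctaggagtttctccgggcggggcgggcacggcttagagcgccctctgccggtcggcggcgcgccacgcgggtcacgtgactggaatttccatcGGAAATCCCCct
Nfkbie, chr17:45555450-45555699 on the plus strand: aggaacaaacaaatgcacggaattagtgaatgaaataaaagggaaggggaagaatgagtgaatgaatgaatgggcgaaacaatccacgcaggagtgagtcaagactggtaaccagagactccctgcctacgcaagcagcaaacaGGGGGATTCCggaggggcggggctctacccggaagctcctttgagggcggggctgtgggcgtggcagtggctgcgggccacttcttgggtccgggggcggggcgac
Rela, chr19:5637291-5637540 on the plus strand: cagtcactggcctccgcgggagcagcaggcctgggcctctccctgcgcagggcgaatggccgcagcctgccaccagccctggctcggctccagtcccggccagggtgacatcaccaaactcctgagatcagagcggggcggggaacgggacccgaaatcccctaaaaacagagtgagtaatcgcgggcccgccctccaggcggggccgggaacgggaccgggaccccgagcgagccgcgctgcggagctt
The Nfkbia window has 1 stretch of matches and the first windows of Nfkb2 and Tnfaip3 have 2 each. Nfkbie also has 1, and the Rela window has none, as has that of Nfkbib. Members with and without the consensus are both found among the lowest ratios described next.

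All 3 tested subunit transcripts were lower under AngII, as were 3 of the 5 inhibitor transcripts, Nfkbia, Tnfaip3 and Nfkbib. Rela changed most, to 0.407 of its media level, and Nfkbie and Nfkbiz did not pass the test. In limma, 6 of 8 tested members fell and 0 rose at an adjusted p under 0.05. Over all features 77.1% passed, 39% higher and 38.1% lower, so a call alone says little here and the sizes matter more. By size, 4 of 8 members were at least 1.5-fold lower, where 5.39% of all features were, and 0 of 8 were 1.5-fold higher, where 5.49% were. On all 4 arrays 6 of 8 kept a negative ratio, a count for which no share of all features is given. The members and the rule were chosen with earlier results of these data known, so these counts are a description.

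**Figure D1:**
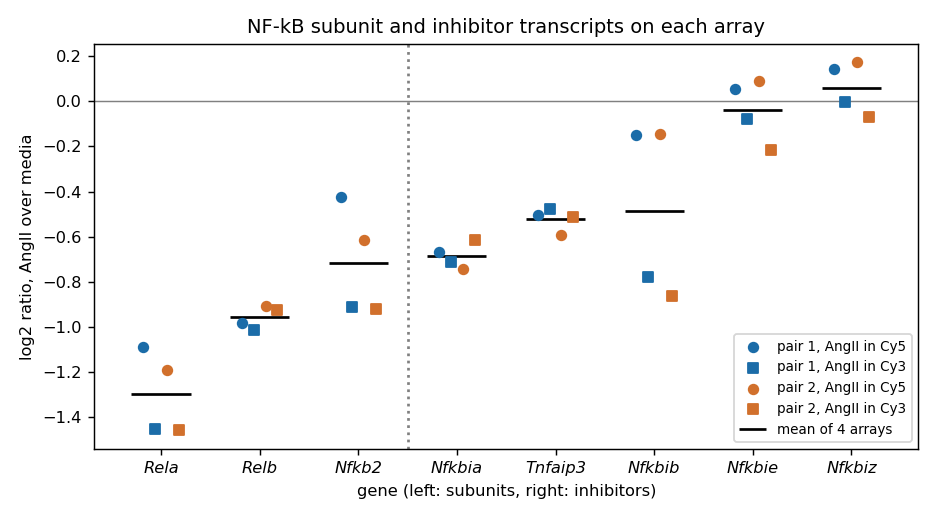
Log2 ratio of AngII over media on the vertical axis for each tested member, subunits left and inhibitors right. Circles are arrays with AngII in Cy5, squares arrays with AngII in Cy3, colours the 2 numbered pairs, and bars the mean of 4 arrays. The 3 subunits lie below 0 on every array, and Nfkbie and Nfkbiz lie on both sides of 0.

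Rela encodes p65, the subunit that carries the main transactivation domain and pairs with p50 in the classical dimer. Its brighter probe had normalised log2 intensities of 11.27 and 10.96 in AngII RNA of pair 1 (AngII in Cy5, then in Cy3), and 11.19 and 10.92 in that of pair 2. In media RNA the same arrays gave 12.36, 12.42, 12.38 and 12.38. Every AngII value lay below every media value, and the media values varied less. The log2 ratios were -1.09, -1.45, -1.19 and -1.46, with a mean of -1.30 (SE 0.03, limma adjusted p = 4.56e-19), a 2.46-fold lower level under AngII. Only 0.37% of features had a lower ratio.

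Rela had a further probe, printed in 10 spots on each array, which gives its spread within an array. With AngII in Cy5 its mean log2 ratio over spots was -1.26 ± 0.04 in pair 1 (SD, 10 spots) and -1.27 ± 0.08 in pair 2 (SD, 7 spots). With AngII in Cy3 it was -1.43 ± 0.14 in pair 1 (SD, 10 spots) and -1.56 ± 0.06 in pair 2 (SD, 9 spots). The remaining spots carried outlier marks and were left out. The spot nearest to 0 on any array had a ratio of -1.13. The mean of this probe was -1.38, so both probes put Rela at similarly lower levels, and on both the ratio was further from 0 with AngII in Cy3. In the authors' deposited table the single-spot probe has a log2 ratio of -1.33 and the 10 spots of the other probe run from -1.58 to -1.45.

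**Figure D2:**
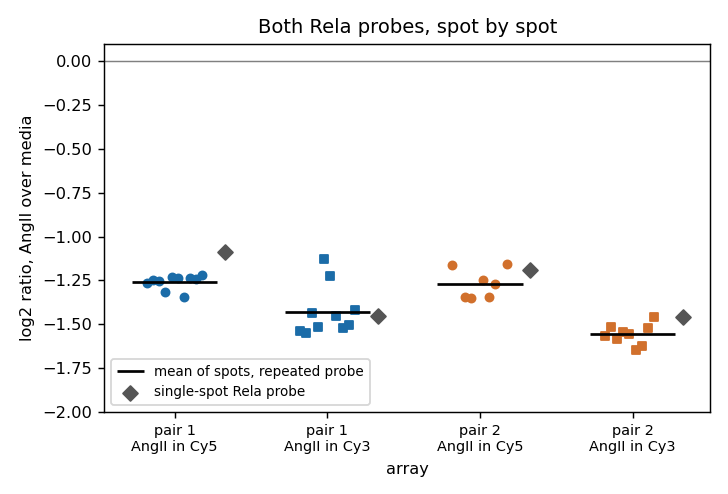
Log2 ratio of AngII over media of the 2 Rela probes on each of the 4 arrays. Circles and squares are single spots of the probe printed 10 times, bars their mean, and diamonds the single-spot probe. Spot ratios stay between -1.65 and -1.13.

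Relb encodes the subunit that pairs mainly with p52 in the non-canonical pathway. Its log2 intensities were 11.21, 11.28, 11.54 and 11.32 in AngII RNA, and 12.19, 12.29, 12.45 and 12.25 in media RNA (pair 1 with AngII in Cy5 and in Cy3, then pair 2 likewise). The values of the 2 RNAs did not overlap, and they ran in parallel from array to array. The log2 ratios of -0.98, -1.02, -0.91 and -0.93 were the closest together of the 3 subunits. The mean was -0.96 (SE 0.03, limma adjusted p = 1.22e-16), 1.94-fold lower under AngII, and 1.15% of features had a lower ratio. In the authors' deposited table Relb has a log2 ratio of -0.95 and an adjusted p of 0.00213, the largest among the 6 members that fell.

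Nfkb2 encodes p100, which is processed to p52 and in its full form acts as an inhibitor through its ankyrin repeats, so it belongs in part to both classes. The log2 intensities were 11.51, 11.01, 11.52 and 10.97 in AngII RNA, and 11.93, 11.92, 12.14 and 11.89 in media RNA. They did not overlap, and AngII values split by dye while media values did so less. The log2 ratios were -0.42 and -0.61 with AngII in Cy5, and -0.91 and -0.92 with AngII in Cy3. The mean was -0.72 (SE 0.04, limma adjusted p = 2.5e-14), 1.64-fold lower under AngII, with 3.07% of features lower.

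Rel encodes c-Rel, a subunit best known in lymphoid cells. Its probe was well above background on 0 of 4 arrays in either RNA. The log2 intensities ran from 5.83 to 6.09 in AngII RNA and from 5.97 to 6.07 in media RNA. No fold change is given, since both RNAs gave only a bound at this signal.

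Nfkbia encodes IkB-alpha, the inhibitor that is broken down and then made again within the classical feedback loop. It had log2 intensities of 13.55, 13.48, 13.73 and 13.52 in AngII RNA, and 14.22, 14.19, 14.48 and 14.13 in media RNA. The 2 RNAs did not overlap. The log2 ratios were -0.67, -0.71, -0.74 and -0.61, with a mean of -0.68 (SE 0.03, limma adjusted p = 2.45e-14), and dye orientation made little difference. This was a 1.61-fold lower level under AngII, and 3.61% of features had a lower ratio.

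Tnfaip3 encodes A20, a ubiquitin-editing enzyme that switches off signalling upstream of the IkB kinases. Its log2 intensities were 9.82, 10.03, 9.82 and 9.96 in AngII RNA, and 10.32, 10.51, 10.41 and 10.47 in media RNA, without overlap. The log2 ratios of -0.50, -0.48, -0.59 and -0.51 were nearly as tight as those of Relb. The mean was -0.52 (SE 0.03, limma adjusted p = 4.25e-12), 1.44-fold lower under AngII, with 6.71% of features lower.

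Nfkbib encodes IkB-beta, an inhibitor that binds p65 and c-Rel dimers and is less bound to the fast feedback loop than IkB-alpha. The log2 intensities were 11.42, 11.02, 11.58 and 10.98 in AngII RNA, and 11.58, 11.80, 11.72 and 11.84 in media RNA, and the highest AngII value reached the lowest media value. The log2 ratios were -0.15 and -0.15 with AngII in Cy5 but -0.78 and -0.86 with AngII in Cy3. The mean was -0.49 (SE 0.03, limma adjusted p = 1.23e-11), or 0.714 of its media level under AngII. The call was lost with the replicate block on the 4 arrays (limma adjusted p = 0.09) and without replicate 2 (0.104). That block fits a term for the numbered pair and leaves dye differences in the residual spread. The size of the fall depended on the dye more than for any other member.

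Nfkbie encodes IkB-epsilon, an inhibitor known for delayed feedback. Its log2 intensities were 7.53, 7.25, 7.87 and 7.38 in AngII RNA, and 7.47, 7.33, 7.78 and 7.60 in media RNA, which overlap. The log2 ratios were 0.06, -0.08, 0.09 and -0.22, with a mean of -0.04 (SE 0.03, limma adjusted p = 0.324). The sign followed the dye orientation, above 0 with AngII in Cy5 and below 0 with AngII in Cy3.

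Nfkbiz encodes IkB-zeta, an atypical nuclear member that acts as a coactivator of selected NF-kB targets such as Il6. The log2 intensities were 8.44, 8.59, 7.73 and 8.53 in AngII RNA, and 8.30, 8.60, 7.55 and 8.59 in media RNA. The array of pair 2 with AngII in Cy5 was low in both RNAs, which leaves the ratio on that array near the others. The log2 ratios were 0.14, -0.00, 0.17 and -0.07, with a mean of 0.06 (SE 0.03, limma adjusted p = 0.102). With the arrays of AngII in Cy5 alone Nfkbiz passed at a log2 ratio of 0.16 (limma adjusted p = 0.00684), and with those of AngII in Cy3 alone it stood at -0.04 (0.45). Nfkbie passed with AngII in Cy3 alone, at -0.15 (0.0202), and stood at 0.07 (0.233) with AngII in Cy5 alone. Neither ratio is settled in sign.

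**Figure D3:**
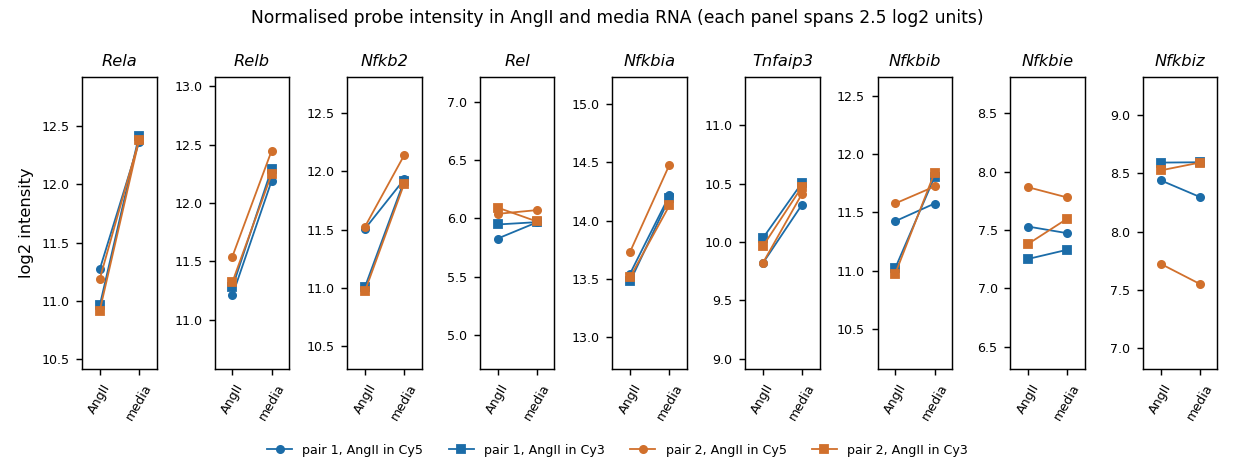
Normalised log2 intensity of each member's probe in AngII RNA (left) and media RNA (right). Lines join the 2 RNAs of 1 array, and panels have their own range of equal height, so slopes but not levels can be read across panels. Intensities do not overlap between the RNAs for Rela, Relb, Nfkb2, Nfkbia and Tnfaip3.

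In 5 of the 8 tested members the AngII and media intensities of the 4 arrays did not overlap, each time with AngII lower, where 15.1% of all features did so, and in 0 of 8 was AngII higher without overlap, where 17.9% of features were. The ratio differed between dye orientations in 5 of 8 tested members in limma, led by Nfkbib (adjusted p = 6.12e-05), where 56.7% of all features did. Relb, Nfkbia and Tnfaip3 were the 3 that did not pass that test (adjusted p = 0.725, 0.602 and 0.466), and for these the 4 arrays gave nearly 1 value. Between the numbered pairs no member differed (largest half-difference 0.05, for Nfkb2, limma adjusted p = 0.954).

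The 3 tested subunits stood lower than the 5 inhibitors by class median, with Rel and Nfkb1 not among them. The median log2 ratio was -0.96 for the 3 subunits and -0.49 for the 5 inhibitors, against 0.0001 for all features, whose median absolute value was 0.19. The inhibitor median was the value of Nfkbib, whose ratio depended on the dye more than that of any other member. Taken array by array, the subunit median minus the inhibitor median was -0.83 and -0.76 with AngII in Cy5, and -0.54 and -0.41 with AngII in Cy3. The subunit class was therefore lower on each of the 4 arrays, by a margin that moved with the dye. Of 15 pairs of 1 subunit and 1 inhibitor, 13 had the subunit lower on all 4 arrays. The exceptions were Nfkb2 against Nfkbia, where the difference was -0.03 and ran from -0.31 to 0.24, and Nfkb2 against Tnfaip3, at -0.20 (-0.43 to 0.08). The margin between the classes thus rests on Rela and Relb more than on Nfkb2. No test was made of the classes, since genes are not replicates.

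Ordered by mean log2 ratio, the members ran Rela, Relb, Nfkb2, Nfkbia, Tnfaip3, Nfkbib, Nfkbie and Nfkbiz. Rela lay below Relb on 4 of 4 arrays, by 0.11 to 0.53 log2 units. Nfkb2 could not be set apart from Nfkbia, nor Tnfaip3 from Nfkbib, since the sign of each difference varied among the arrays. The step from Nfkbib to Nfkbie was the widest, -0.45 on average (-0.70 to -0.21).

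**Figure D4:**
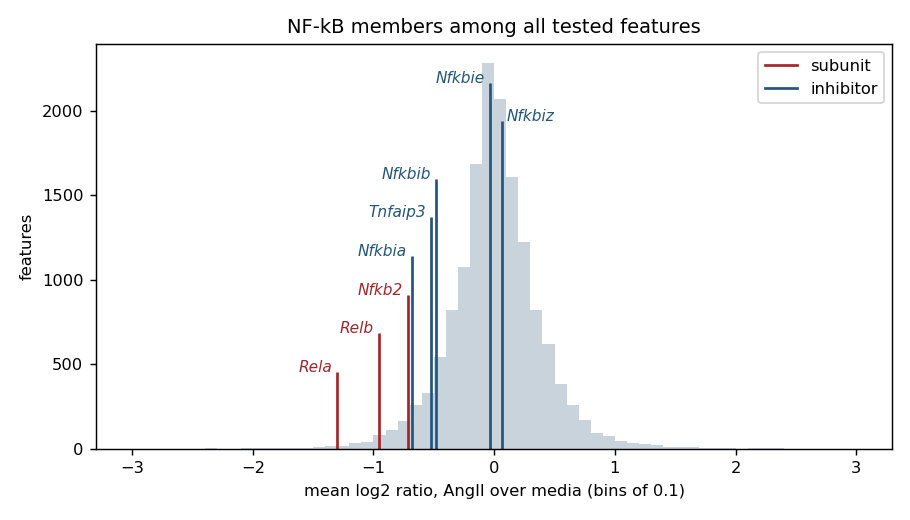
Number of features by mean log2 ratio of AngII over media, in bins of 0.1, with the 8 tested members as labelled lines (line heights carry no value). The 3 subunits and Nfkbia, Tnfaip3 and Nfkbib lie in the lower flank, with between 0.37% and 7.67% of features below them, and Nfkbie and Nfkbiz lie near the centre.

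Other genes of the pathway were grouped by role, in lists chosen with earlier results of these data known. Of 132 listed genes 100 were tested. In limma 28 of them rose and 52 fell, 20 missed the threshold, and their median log2 ratio was -0.10. The 80% called is near the 77.1% of all features, so the call counts below say little of the lists and their sizes are given. With the replicate block on the 4 arrays, which leaves dye differences in the residual spread, 37 of these 100 passed, where 30.9% of all features did. Of the genes named below, that block ended the calls of Ikbkb, Ikbke, Tbk1, Sqstm1, Rbck1, Bcl3, Tnip1, Il1r1, Il17ra, Ltbr, Tnfrsf11a, Kat2b, Crebbp and Hmgb1. Genes named below were taken by rule, as the called members of each list with the smallest p and one sign on all 4 arrays, unless said otherwise.

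IkB kinase and upstream kinase genes (13 tested) gave 3 calls up, 5 down and 5 misses around a median of 0.03, and 0 changed 1.5-fold. Chuk, which encodes the kinase IKK-alpha, rose by 0.36 on the log2 scale (array range 0.19 to 0.59), and Map3k14, the NIK kinase of the non-canonical pathway, fell by 0.33 (array range -0.42 to -0.26). The IKK-related kinase genes Ikbke and Tbk1 fell by 0.21 and 0.14 on the log2 scale. Ikbkb, which encodes IKK-beta and was named after its value was seen, had -0.08 (-0.34 to 0.13, limma adjusted p = 0.0315).

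Of 21 tested adaptor and ubiquitin ligase genes, 76.2% were called, 6 up and 10 down, a share near that of all features (77.1%), and their median was -0.06. Tradd, the adaptor of the TNF receptor, rose by 0.66 (0.43 to 0.84) and Myd88, that of Toll-like and IL-1 receptors, by 0.41, while Tirap, which bridges Toll-like receptors to Myd88, fell by 0.56 (-0.78 to -0.29). Sqstm1, Card10 and Rbck1, which encode a scaffold, a CARD adaptor and a subunit of the linear ubiquitin ligase, fell by 0.40, 0.37 and 0.33. Of 8 tested receptor genes, 5 were called higher and 2 lower (median 0.15), and with the block 1 each way. Tnfrsf12a, the receptor of TWEAK, fell by 0.80 (-1.08 to -0.52) and Il17ra by 0.29, and Il1r1 rose by 0.49 (0.16 to 0.79), Tnfrsf1b by 0.43, with -0.05 at another probe, Ltbr by 0.23 and Tnfrsf11a by 0.21. The angiotensin receptor genes Agtr1a, Agtr1b and Agtr2 were not well above background and were not tested.

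Among the other IkB family and negative regulator genes, 14 were tested: 7 fell and 3 rose (median -0.10). Nfkbid, which encodes the nuclear IkB family member IkB-NS, fell by 0.66 (-0.72 to -0.63) at a dim probe (mean log2 intensity 6.68). With Agilent's processed signals its log2 ratio was -1.91, so the size of its fall depended on the processing. Nfkbia, at a mean log2 intensity of 13.92, had -0.64 with the same signals. Otud7b, a deubiquitinase that restrains the non-canonical pathway, fell by 0.49, and the A20-binding protein genes Tnip1 and Tnip2 fell by 0.33 and 0.31. Sigirr, an inhibitory receptor of the IL-1 receptor family, rose by 0.69 (0.40 to 0.99). Commd1 rose by 0.33 at its brightest probe and had -0.23 and 0.03 at others, and their mean did not pass (0.04, limma adjusted p = 0.224). Bcl3, an atypical IkB named after its value was seen, had -0.37, and its 4 ratios spread from -0.80 to 0.02.

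Cytokine and chemokine targets had a list median of -1.03: of 14 tested, 11 fell, 2 rose and 1 missed the threshold. The median was -0.35 over 18 genes with no filter on dim probes and -0.74 with AngII in Cy5 alone, above the subunit medians of -0.84 and -0.94 under the same settings. The 6 with the smallest p, Ccl4, Ccl20, Tnf, Ltb, Cxcl10 and Ccl2, had log2 ratios of -1.96, -1.92, -1.78, -1.91, -1.27 and -1.20, and all 6 fell. Of these Tnf and Ltb encode ligands that activate the classical and the non-canonical pathway, and Ccl2, a monocyte attractant, had the widest range (-1.68 to -0.71). Cx3cl1 and Ccl5, named after their values were seen, rose by 1.03 (0.94 to 1.11) and 0.51 (0.42 to 0.61), so known targets did not move as one. The inflammatory cytokine genes Il1a, Il1b, Il6 and Csf2 were not well above background and were not tested.

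Other targets were mixed, 11 of 19 down and 7 up (median -0.25). Plau, which encodes urokinase, fell by 0.99 (-1.45 to -0.58). Gadd45b, a stress sensor, fell by 0.64, with -0.12 at another probe, and the survival gene Bcl2l1 by 0.62, with -0.49 and -0.15 at others. Mmp9 (0.85, another probe 0.77), Ptges (0.75) and the immunoproteasome gene Psmb9 (0.59) rose. Mmp9, at a mean log2 intensity of 6.72, did not pass the stricter filter, so its rise was not tested under that setting. With processed signals the log2 ratios of Mmp9, Psmb9 and Bcl2l1 were 2.61, 1.52 and -1.11. Sod2, the mitochondrial superoxide dismutase gene and a textbook NF-kB target, had a log2 ratio of 0.001 (-0.09 to 0.12, limma adjusted p = 0.98) and was named after its value was seen. Cofactor genes numbered 11, of which 6 fell and 2 rose (median -0.09). The corepressor gene Ncor1 fell by 0.26, with -0.26 and -0.53 at other probes, the acetyltransferase genes Kat2b and Crebbp by 0.22 and 0.12, and Hmgb1 by 0.09. Crebbp, at a mean log2 intensity of 6.27, did not pass the stricter filter either, so its ratio too is only a bound.

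**Figure D5:**
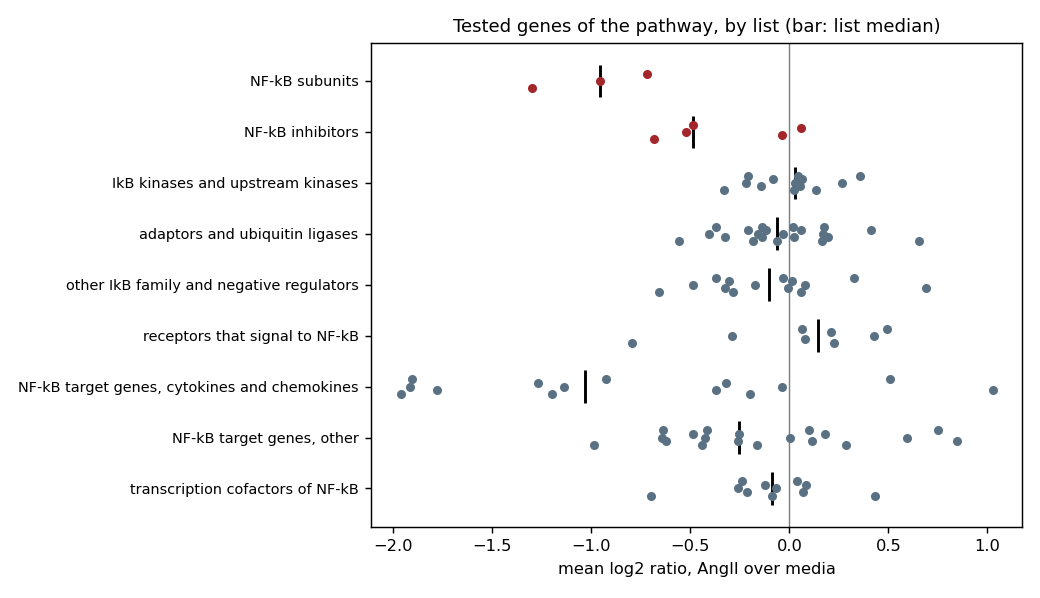
Mean log2 ratio of AngII over media for every tested gene of each list. Points are genes, black bars list medians, and red marks the subunits and inhibitors. Kinases, adaptors, receptors and cofactors spread around 0, with medians between -0.09 and 0.15, whereas the subunit median is -0.96 and the cytokine and chemokine median -1.03.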

How the data were processed

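Total RNA was labelled with Cy3 and Cy5 from 300 ng per sample, per the labels' protocols, and per the file headers 4 two-colour Agilent arrays were extracted by Feature Extraction 10.5.1.1. Deposited intensity values comprise the median pixel intensity per spot and per local background, uncorrected, and processed intensities, background-subtracted and dye-normalised by Agilent's software per the file headers. Spots also carry deposited flags (0 or 1). Log2 ratios of AngII over media, adjusted p-values and a call, a score of -1, 0 or 1, come from the authors' deposited table. Its design is not given in the sources used here, and the submitters' processing notes name limma, with no version. Its log2 ratios correlated with those computed here at Pearson r = 0.995 across 15003 features, which are not independent, and this set its direction.

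For the ratios, limma 3.58.1 was run in R 4.3.3 with normexp background correction with an offset of 50, loess within arrays with control spots at weight 0, outlier-marked spots left out, and spots of a probe averaged. After turning all ratios to AngII over media, the 2 arrays sharing a replicate number were averaged, and lmFit with eBayes tested the resulting 2 ratios against 0, with Benjamini-Hochberg adjustment over all features. Probes had to exceed background well on all 4 arrays in at least one RNA (19390 probes), judged by most of their spots. The brightest probe stood for a gene. Intensities per RNA were taken after loess and Aquantile scaling. Symbols came from a match of unversioned accessions to a RefSeq gene table of GRCm38.p6 (25097 probes matched). The AngII and media RNAs of a number share their arrays, so each ratio is already within a pair. The labels name no separate animals or cultures. The members, gene lists and naming rule were chosen with earlier results of these data known. The rule named all members, up to 6 called genes per list with one sign on all 4 arrays, and the 3 features nearest to the most changed subunit and inhibitor; some genes it took are not reported here. The fit was tested on simulated ratios with independent noise of the same size for every feature and no dye effect. That run cannot show how the fit handles dye spread. The alternatives are in the closing section.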

Additional observations from a re-analysis of the deposited data

How the results depend on the processing

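Rela, Relb, Nfkb2, Nfkbia and Tnfaip3 kept their direction and their call under all 12 alternatives run for each gene, the authors' deposited table included, with log2 ratios between -1.46 and -1.14, -0.999 and -0.88, -0.92 and -0.52, -0.71 and -0.60, and -0.57 and -0.47. Nfkbib kept its direction, and its call in 10 of 12, at -0.82 to -0.15. Nfkbie reversed to 0.073 with AngII in Cy5 alone and Nfkbiz to -0.0354 with AngII in Cy3 alone. The subunit median was -0.88 with median centring and -0.84 with no filter on dim probes, where Rel enters. The inhibitor median was -0.15 and the subunit minus inhibitor difference -0.80 with AngII in Cy5 alone. With no filter the difference was -0.35, and without one replicate it ran from -0.53 to -0.41. With the replicate block on the 4 arrays 4640 features passed, and 37 of the 100 pathway genes; it changed no member's call other than that of Nfkbib. Without one replicate, on the 2 arrays of the other, 2214 to 2939 features and 23 to 27 pathway genes passed. Those 2 arrays differ in dye orientation. On the 2 arrays that share AngII in Cy5, 10255 features and 66 pathway genes passed. List medians near 0 turned sign: the kinases to -0.0101 when a gene's probes were averaged, to -0.0168 on the Cy5 arrays and to -0.0249 on the Cy3 arrays (named by the dye of AngII), the adaptors to 0.0163 with AngII in Cy5 alone, and the other targets to 0.001 with no filter. The median of the cytokine and chemokine targets came to -1.37 using processed signals, to -0.74 on the Cy5 arrays and, unfiltered, to -0.35, where members near background enter. With processed signals the log2 ratios of other named genes moved by over 1.5 times, to -0.45 for Ikbke, -0.20 for Sqstm1, -0.82 for Il17ra, 0.86 for Tnfrsf1b, 0.53 for Ltbr, 0.39 for Tnfrsf11a and -0.61 for Crebbp. Tbk1 and Hmgb1 lost their calls with processed signals and with median centring, Hmgb1 also with no filter, Sqstm1, Ltbr and Hmgb1 with AngII in Cy5 alone, and Ikbke with AngII in Cy3 alone. The cause of the other differences was not tested. Signal over background limits what can be said of Rel. Every result is limited by RNAs that were counted as 1 independent pair.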

Other observations

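Over the 4 log2 ratios, the named features nearest to Rela by Euclidean distance were Atf3 (0.08), a stress-induced transcription factor gene, Hspb8 (0.17), a small heat shock protein gene, and Igsf9 (0.17), with mean log2 ratios of -1.31, -1.30 and -1.22. Within a distance of 0.25 Rela had 10 features. Nfkbia had 133, the nearest being Tnni2 (0.06), Abhd8 (0.07) and Abl1 (0.07). The 4 arrays were counted as 1 independent pair of RNAs, so this likeness describes ratio and dye response.

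Irak1, which encodes a kinase downstream of IL-1 and Toll-like receptors, had a log2 ratio of 0.05 at its brightest probe and -0.10 and -0.59 at 2 others. Rnf31, the catalytic subunit gene of the linear ubiquitin ligase, had -0.14 and -0.44. Cflar, which encodes an inhibitor of caspase-8, had -0.25 at its brightest probe and 0.25, 0.09 and -0.25 at others. These 3 were named after their values were seen, and with the replicate block Rnf31 and Cflar did not pass at their brightest probes (limma adjusted p = 0.317 and 0.248).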
